A study of Mus musculus with 6 samples.

Results

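The Schlafen genes Slfn1, Slfn2, Slfn5, Slfn8 and Slfn9, 5 of the 32285 genes counted, were followed through the CD45+ cells of the mouse midbrain. They were chosen by measured values, the levels of Slfn8 and Slfn9 in microglia (MG) after the JAK inhibitor AZD1480 against vehicle, where both were far lower. The values of all 5 in that contrast are therefore a description, without a test. All mice were male Line 61 animals, which carry human α-synuclein under the Thy1 promoter and were 12 to 15 weeks old at bilateral injection into the striatum. They received PBS, human α-synuclein monomer, or human α-synuclein pre-formed fibrils (PFF) followed by oral vehicle (PFF + VH) or by AZD1480 at 25 mg/kg daily from week 2 (PFF + AZD1480). Ventral midbrains were collected 6 weeks after injection and pooled by 3 to 5 into a sample, several samples were made per condition, and each condition has 1 single-cell library here. No library came from mice without the transgene, so every value was measured on an α-synuclein background. The PFF + VH library carried 4 hashtags and the PFF + AZD1480 library 5, and hashtags served here as the replicates. All hashtags of a treatment lay in 1 library, so drug and library cannot be told apart in any comparison of these libraries. In lists of 4 values, the libraries stand in the order PBS, monomer, PFF + VH, PFF + AZD1480.

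Schlafen proteins are a family of immune-regulatory proteins whose genes are induced by type I interferon in many cell types. Slfn1 and Slfn2 encode short members, which were described as brakes on lymphocyte growth, and Slfn2 is needed for the quiescence of T cells and monocytes. Slfn5, Slfn8 and Slfn9 encode long members with a C-terminal helicase-like region. Interferon receptors signal through JAK kinases to transcription factors that bind the interferon-stimulated response element (ISRE), and AZD1480 inhibits JAK1 and JAK2.

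In the GENCODE annotation of mm10, all 5 genes lay in 1 cluster on chromosome 11. From left to right these were Slfn5 (ENSMUSG00000054404, chr11:82951349-82964840, plus strand), Slfn9 (ENSMUSG00000069793, chr11:82978390-82991830, minus strand), Slfn8 (ENSMUSG00000035208, chr11:83002158-83020810, minus strand), Slfn2 (ENSMUSG00000072620, chr11:83065112-83070678, plus strand) and Slfn1 (ENSMUSG00000078763, chr11:83116849-83122670, plus strand). The 250 bases before the first RefSeq start (GRCm38.p6) are printed for the 4 genes with values in MG, since the ISRE is the element on which interferon signalling acts. The capitals mark a match to the ISRE core, which is GAAA, any 2 bases and GAAA, or TTTC, any 2 bases and TTTC when read on the other strand.

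Slfn8 (chr11:83020811-83021060, minus strand): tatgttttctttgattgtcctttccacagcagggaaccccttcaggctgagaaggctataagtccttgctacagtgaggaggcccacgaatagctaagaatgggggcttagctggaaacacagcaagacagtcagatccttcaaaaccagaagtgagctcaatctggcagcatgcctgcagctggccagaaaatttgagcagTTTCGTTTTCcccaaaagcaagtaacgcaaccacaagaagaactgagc
Slfn9 (chr11:82991831-82992080, minus strand): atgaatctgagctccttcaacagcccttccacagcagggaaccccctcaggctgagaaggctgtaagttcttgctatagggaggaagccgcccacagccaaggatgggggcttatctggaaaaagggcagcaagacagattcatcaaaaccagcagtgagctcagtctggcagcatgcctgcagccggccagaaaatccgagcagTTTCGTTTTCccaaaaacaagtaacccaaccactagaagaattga
Slfn5 (chr11:82951852-82952101, plus strand): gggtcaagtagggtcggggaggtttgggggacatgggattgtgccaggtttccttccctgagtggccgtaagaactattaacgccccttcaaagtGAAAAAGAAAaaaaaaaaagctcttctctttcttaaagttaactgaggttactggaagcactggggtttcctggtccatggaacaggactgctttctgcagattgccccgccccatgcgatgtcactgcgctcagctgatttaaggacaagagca
Slfn2 (chr11:83064862-83065111, plus strand): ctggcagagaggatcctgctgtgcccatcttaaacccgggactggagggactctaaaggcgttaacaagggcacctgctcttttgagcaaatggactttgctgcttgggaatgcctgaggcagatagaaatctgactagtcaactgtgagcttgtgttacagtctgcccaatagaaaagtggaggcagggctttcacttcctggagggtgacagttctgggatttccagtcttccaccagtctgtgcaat

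Slfn8 and Slfn9 held the same match, TTTCGTTTTC, which ended 38 and 35 bases before their starts, and Slfn5 held GAAAAAGAAA, which ended 145 bases before its start. The RefSeq start of Slfn5 lies past its GENCODE start, so the printed Slfn5 window is inside the GENCODE span of the gene. Slfn8 has another RefSeq start, whose window (chr11:83020723-83020972) is not printed and holds the same match, ending 126 bases before that start. No match lay in the windows of Slfn2 or Slfn1. An ISRE core on either strand was present in 2.98% of the 32851 promoter windows of this length. The STAT dimer element TTCNNNGAA was found in no window of the 5 genes and in 7.02% of all windows. The ETS factor core AGGAAGT, read as ACTTCCT on the printed strand, was found in the windows of Slfn2, ending 48 bases before its start, and of Slfn1, ending 67 bases before its start, and in 7.69% of all windows. The Slfn8 and Slfn9 windows were identical at 80.0% of aligned positions, while the other 9 pairs of the 5 genes ranged from 44.4% to 50.9%. The 2 genes also share transcript sequence, since 8.08% of the 90-base words in the last 1000 bases of Slfn8 transcripts and 8.53% of those of Slfn9 occurred in each other or in the pseudogene Slfn10-ps, so a small part of their reads may be split or lost between them.

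After filtering, the libraries held 13021 to 34436 cells, with a median of 6616 to 7028 UMIs per cell in PBS, monomer and PFF + AZD1480 and 2306 in PFF + VH. Cells were classed by marker UMIs, which gave 11671 to 30744 MG per library. The other classes were small, with 105 to 187 cells of the monocyte and macrophage class (MM), 95 to 215 T/NK cells, 25 to 49 B cells and 18 to 102 neutrophils. MG marker genes such as P2ry12 and Tmem119 were measured at 13.3% to 19.5% of their MG level in MM, at 3.0% to 11.6% in T/NK cells and at 4.8% to 43.3% in neutrophils, highest there in PFF + VH. Those markers set the gate, and 6 abundant MG genes that do not, and that macrophages can also express, stood at 31.6% to 34.6% of their MG level in MM, 4.0% to 15.9% in T/NK cells and 4.8% to 46.0% in neutrophils. The part of these MG transcripts in the Schlafen levels of the other classes was not tested. Any 2 libraries shared at most 1.05% of their barcodes. Levels are given as UMIs of the gene per 1000000 UMIs of all cells of the class in a library or hashtag (CPM), with exact Poisson 95% intervals that cover counting error only.

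Slfn8, a long Schlafen, was a strongly detected gene of MG in the libraries without the drug. Its level in the 4 libraries was 261, 303, 274 and 38.6 CPM, with intervals of 258 to 265, 299 to 306, 271 to 278 and 37.2 to 39.9 CPM. The first 3 libraries lay close together, and the drug library lay far under them. When cells were thinned to 1000 UMIs, leaving out 386, 577, 3709 and 228 shallower MG, Slfn8 was detected in 21.8%, 25.8%, 22.8% and 3.71% of MG, so the gap was present at equal depth. Without thinning these shares were 66.6%, 73.7%, 46.1% and 19.7%, values that also move with depth. In cells classed as endothelial, macroglial or neuronal, of which there were 8 to 17 per library, 1 Slfn8 UMI was found in PBS, 1 in monomer and 0 in the others, or at most 14.1 CPM. The upper limits of these few cells were 58.7 to 84.5 CPM, under the MG level of the 3 libraries without the drug and above that of PFF + AZD1480.

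Slfn9, the neighbour of Slfn8 and also a long Schlafen, followed the same order in MG at 40.8, 49.5, 45.4 and 3.94 CPM. At equal depth it was detected in 3.78%, 4.72%, 4.23% and 0.341% of MG, the order of libraries seen for Slfn8. The ratio of Slfn8 to Slfn9 UMIs was 6.40, 6.11 and 6.04 in the PBS, monomer and PFF + VH libraries, and 9.80 in PFF + AZD1480.

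Slfn2, the short Schlafen tied to leukocyte quiescence, had another pattern in MG, with 30.3, 21.4, 65.7 and 41.0 CPM. Slfn5, a long Schlafen, measured 10.8, 10.0, 24.6 and 7.01 CPM in the same order of libraries. Both were highest in PFF + VH, and their thinned shares gave the same top library, with 5.82% of PFF + VH MG for Slfn2 against 1.79% to 3.29% elsewhere and 2.16% for Slfn5 against 0.586% to 0.846% elsewhere. Slfn1, the founding short member, was almost undetected in MG, at 14, 6, 30 and 12 UMIs in the 4 libraries, or 0.064 to 0.300 CPM.

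**Figure D1:**
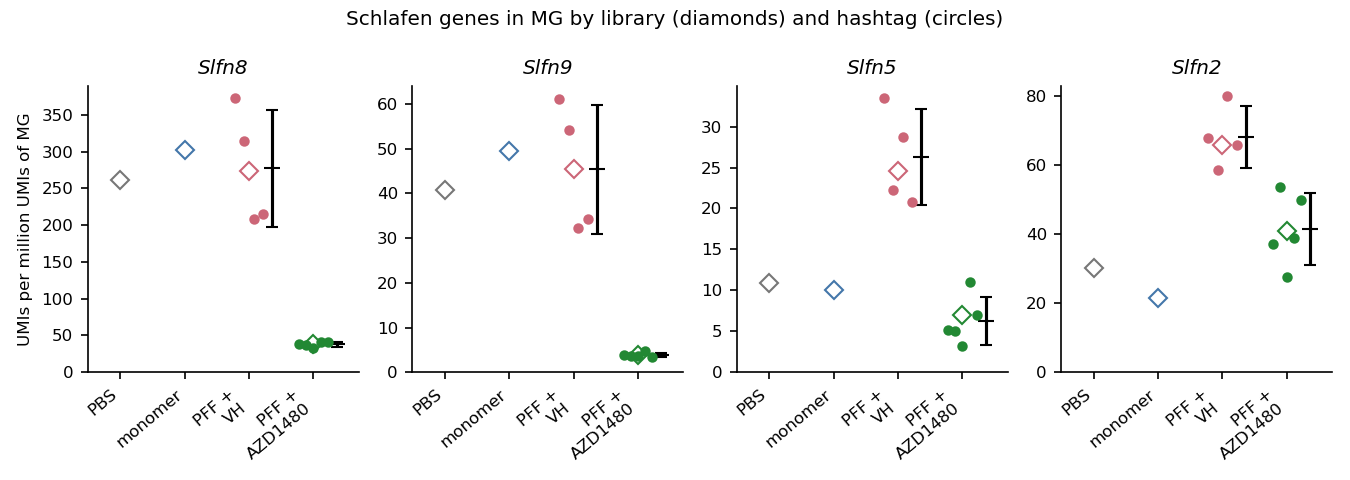
Level of Slfn8, Slfn9, Slfn5 and Slfn2 in MG in CPM (vertical axes from 0, scaled per gene); open diamonds are the 4 libraries, filled circles the hashtags of the PFF libraries, and black bars the mean and SD of the hashtags. Slfn8 and Slfn9 stood near one another in PBS, monomer and PFF + VH and low in PFF + AZD1480, while Slfn2 and Slfn5 were highest in PFF + VH.

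The comparison of the fibril library with its protein control asked which Schlafen genes differed after fibrils and vehicle. The methods describe daily oral vehicle or drug for mice with fibrils only, so fibrils and vehicle cannot be told apart here. With 1 library per condition and no hashtags in PBS and monomer there was no test, and a ratio of 1.5 or more was counted. Slfn2 was 3.07 times and Slfn5 2.46 times as high in PFF + VH MG as in monomer MG, so 2 of the 4 genes measured past 5 CPM were higher, where 2.9% of the 9931 genes were. Their ratios exceeded those of 99.5% and 99.2% of these genes. Slfn8 and Slfn9 stood at 0.906 and 0.916 times the monomer level, ratios above those of 39.1% and 42.5% of genes. Against PBS, Slfn2 and Slfn5 were again the 2 past 1.5, at 2.17 and 2.27 times the PBS level (3% of genes were higher by as much), and Slfn8 and Slfn9 were at 1.05 and 1.11 times. Between monomer and PBS 0 of the 4 genes differed by 1.5 times in either direction, against 0.202% of 9914 genes higher and 0.363% lower in monomer. The control libraries were still not alike for them, since the monomer to PBS ratio of Slfn2 exceeded that of 0.504% of genes only, and those of Slfn8 and Slfn9 exceeded 97.4% and 98.7%. The PFF + VH library was the shallowest per cell, and among MG of 2000 to 6000 UMIs the same 2 genes were past 1.5 against monomer. In that window Slfn2 in monomer was at 0.603 times its PBS level, which is also past 1.5 times.

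Set against the libraries without fibrils, the drug library was not at baseline for Slfn8 and Slfn9. Slfn8 was 7.85 times and Slfn9 12.6 times as high in monomer as in PFF + AZD1480 MG, where 1.14% of 9919 genes were lower by 1.5 times or more in the drug library. Slfn9 had the lowest ratio of these genes and only 0.0202% had a ratio under that of Slfn8. Slfn5 was 1.43 times as high in monomer as in the drug library, and Slfn2 was 1.91 times as high in the drug library as in monomer, where 2.76% of genes were higher there by 1.5 times or more. Set against PBS, Slfn5 was 1.55 times as high in PBS as in the drug library (1.40 among MG of 2000 to 6000 UMIs, under 1.5), and Slfn2 was 1.35 times as high in the drug library as in PBS. These ratios share the drug library with the contrast that chose the genes and are a description.

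By hashtag, Slfn8 in MG was 372, 314, 208 and 215 CPM in PFF + VH and 38.6, 36.6, 33.4, 41.4 and 41.4 CPM in PFF + AZD1480. The groups did not overlap, and 2 of the vehicle hashtags were well above the other 2. The means were 277 ± 79.6 (SD, n = 4) and 38.3 ± 3.39 (SD, n = 5), a log2 fold change of -2.90 (SE 0.15) by edgeR.

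Slfn9 was 61.1, 54.1, 32.2 and 34.2 CPM in the vehicle hashtags and 3.80, 3.65, 3.68, 4.79 and 3.41 in the drug hashtags (log2 fold change -3.57, SE 0.21). Vehicle hashtags 1 and 2 were high and 3 and 4 low for both genes, so that the spread among replicates was shared by the pair. Slfn5 was 33.4, 22.3, 28.7 and 20.8 CPM against 5.13, 5.03, 3.26, 11.03 and 6.97 (log2 fold change -2.07, SE 0.25).

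Slfn2 differed less, with 68.0, 58.6, 79.9 and 65.8 CPM in PFF + VH and 37.0, 53.7, 27.5, 38.9 and 49.99 in PFF + AZD1480 (log2 fold change -0.77, SE 0.15). The hashtag groups of Slfn2, Slfn5, Slfn8 and Slfn9 did not overlap, as was so on the lower side for 9.6% of the 13600 genes fitted, and edgeR called 14.3% of those genes lower. Slfn1 was under the filter on low counts.

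Other interferon-stimulated genes were lower in the same MG. Of a list of 23 measured in the fit, which holds no Schlafen gene, 22 were lower and 0 higher at an adjusted p under 0.05 (edgeR, Benjamini-Hochberg), with a median log2 fold change of -1.88 against -0.00 over all genes. Among those with the highest level were Bst2, a tether of budding virus (-0.63, SE 0.14, edgeR adjusted p = 0.00672), Isg15, a ubiquitin-like modifier (-1.66, adjusted p = 1.07e-05), and Irf9, a transcription factor of the interferon response (-0.86, adjusted p = 4.31e-05). Slfn8 and Slfn9 had lower log2 fold changes than all but 1 of the 23, Ifi44 at -4.34. They were chosen on this contrast, so this rank is in part set by the choice. Of 9 STAT feedback and target genes measured, 2 were lower and 0 higher, where 14.3% of all genes were called lower. These were the feedback inhibitors Socs3 (-0.35, edgeR adjusted p = 0.0261) and Socs1 (-0.80, adjusted p = 0.0079), and the hashtag groups of Socs3 overlapped.

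Genes around the cluster had fold changes nearer to 0 than Slfn5, Slfn8 and Slfn9. Slfn8 and Slfn9 were chosen for their low level in this contrast, so their distance from unchosen neighbours is in part set by that choice. Of 31 other genes measured within 1000 kb on either side, 10 were lower and 3 higher by edgeR. Of all 13600 genes fitted, 14.3% were called lower and 3575 were called in either direction. The median log2 fold change of the 31 was -0.07, with a range from -1.36 (E230016K23Rik) to 0.84 (Mmp28). The lower neighbours included the chemokine genes Ccl6 (-1.34), Ccl5 (-1.27) and Ccl12 (-0.93). The other chemokine genes of the window, Ccl2 (0.02), Ccl7 (0.10), Ccl9 (-0.15), Ccl3 (0.29) and Ccl4 (0.08), were not called. Gm20234, an antisense gene that overlaps Slfn2, had a log2 fold change of -0.78, and whether reads of the pair were kept apart by strand is not given in the sources used here. Slfn5, Slfn9 and Slfn8 were the 3 lowest in the whole window, a rank that the choice of Slfn8 and Slfn9 in part sets.

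**Figure D2:**
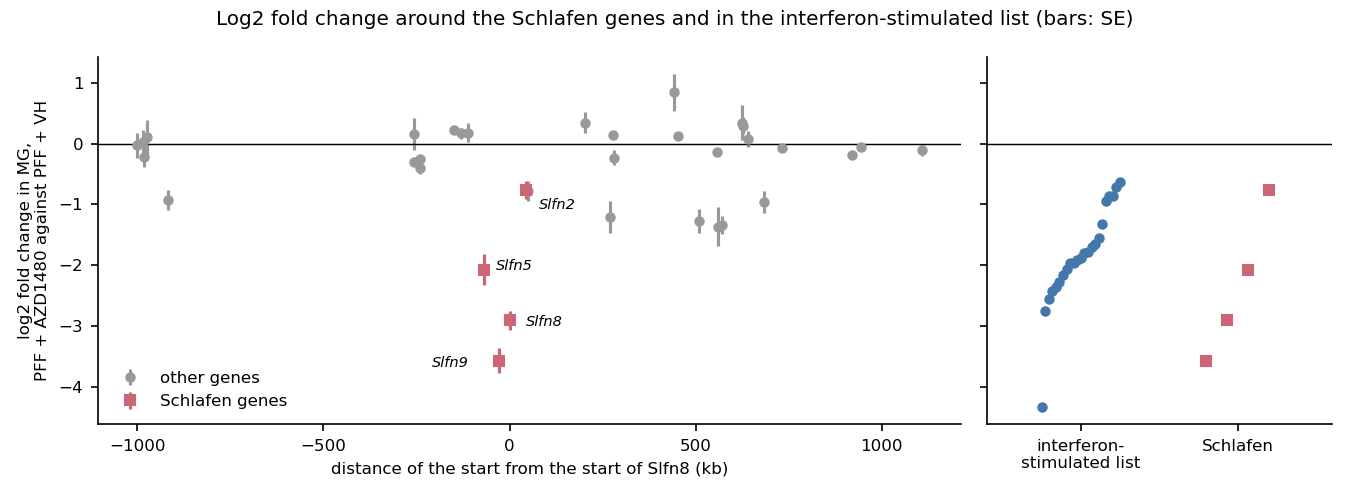
Log2 fold change in MG of PFF + AZD1480 against PFF + VH (vertical axis, bars are SE) by distance of each gene's start from that of Slfn8 in kb (left) and for the interferon-stimulated list beside the 4 Schlafen genes (right). The Schlafen genes reached -3.57, the other genes of the window no lower than -1.36, and the interferon-stimulated list spanned -4.34 to -0.63.

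Within MG, the Schlafen genes had higher levels in the few cells with an interferon signature. MG with a UMI of at least 3 of the interferon state genes (Ifit1, Isg15, Rsad2 and others, no Schlafen gene) after thinning to 1000 UMIs numbered 57, 48, 236 and 29 in the 4 libraries. In them Slfn5 reached 660, 594, 427 and 435 CPM, against 7.65, 7.49, 20.3 and 5.82 CPM in the other MG of the same libraries. Slfn2, Slfn8 and Slfn9 differed less between the states in each library, and the library order of Slfn5 inside the state was not its order outside.

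Slfn8 was 970, 945, 680 and 245 CPM in interferon-state MG against 258, 300, 270 and 37.9 CPM in the rest. Slfn9 was 246, 250, 148 and 83.2 CPM against 39.9, 48.7, 44.2 and 3.73, and Slfn2 342, 324, 249 and 254 CPM against 28.7, 20.1, 63.8 and 40.4. All 4 genes were thus higher in the state in all 4 libraries. The drug library was lower for Slfn8 both in and out of the state, although the values of the drug library inside the state come from 29 cells with 53 Slfn8 UMIs. For Slfn8 and Slfn9 the ratio of the fibril libraries was smaller inside the state than outside, and for Slfn2 and Slfn5 the levels of both libraries inside it were close (249 and 254 CPM, 427 and 435 CPM).

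Over the 5 hashtags with 10 or more such cells (4 of PFF + VH and 1 of PFF + AZD1480), the log2 difference was 4.78 for Slfn5, 2.38 for Slfn9, 2.25 for Slfn2 and 1.64 for Slfn8, each higher in 5 of 5 hashtags. The two-sided exact sign-flip permutation test cannot go under p = 0.0625 with 5 hashtags, and each gene had that value (adjusted p = 0.067 over 5 genes and 3 states).

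In MG with disease-associated (DAM) genes such as Spp1, Lpl and Itgax, the members differed from other MG in different directions. Slfn2 was higher in them by 0.70 ± 0.20 (SD, log2, n = 9 hashtags) and Slfn5 by 0.74 ± 0.39, each in 9 of 9 hashtags, while Slfn8 was lower by a log2 difference of -0.54 ± 0.29 in 9 of 9 (exact sign-flip permutation test, p = 0.00391 and adjusted p = 0.0195 for each). Slfn9 had a log2 difference of -0.09 ± 0.70, higher in 3 of 9 hashtags (exact permutation adjusted p = 0.691). In the libraries, Slfn8 was 107, 204, 204 and 27.2 CPM in DAM-state MG against 264, 303, 280 and 39.1 CPM in the others, lower in all 4. Slfn2 was 44.0, 44.5, 94.6 and 72.0 CPM against 30.0, 21.2, 63.6 and 39.3, higher in all 4. With at least 4 state genes asked for, the calls of Slfn2 and Slfn5 were lost (exact permutation adjusted p = 0.0938 and 0.144) with log2 differences of 0.40 and 0.64, and the call of Slfn5 was also lost when cells were thinned to 500 UMIs (adjusted p = 0.144).

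In cycling MG, found through genes such as Mki67 and Top2a, Slfn5 had a log2 difference from other MG of -1.55 ± 0.42 (SD, n = 6 hashtags, 0 of 6 higher) and Slfn8 of -0.46 ± 0.47 (0 of 6 higher). Slfn2 stood 0.70 ± 0.17 and Slfn9 1.02 ± 0.87 above the other MG, each higher in 6 of 6. None of these passed the threshold (exact permutation adjusted p = 0.0521 for each, from 0.0313, the lowest p that 6 hashtags allow). Slfn5 rested on 0 to 3 UMIs per hashtag in cycling MG. Slfn8 and Slfn9 rested on 2 to 4 UMIs in the drug hashtags, which held their largest differences. Over the 15 tests of genes and states, 3 passed, all in the DAM state. The share of all genes that passes the same test is not given here, so the 3 calls are not read as particular to Schlafen genes. Levels of Slfn1 in states rested on 0 to 5 UMIs per library and are not given.

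**Figure D3:**
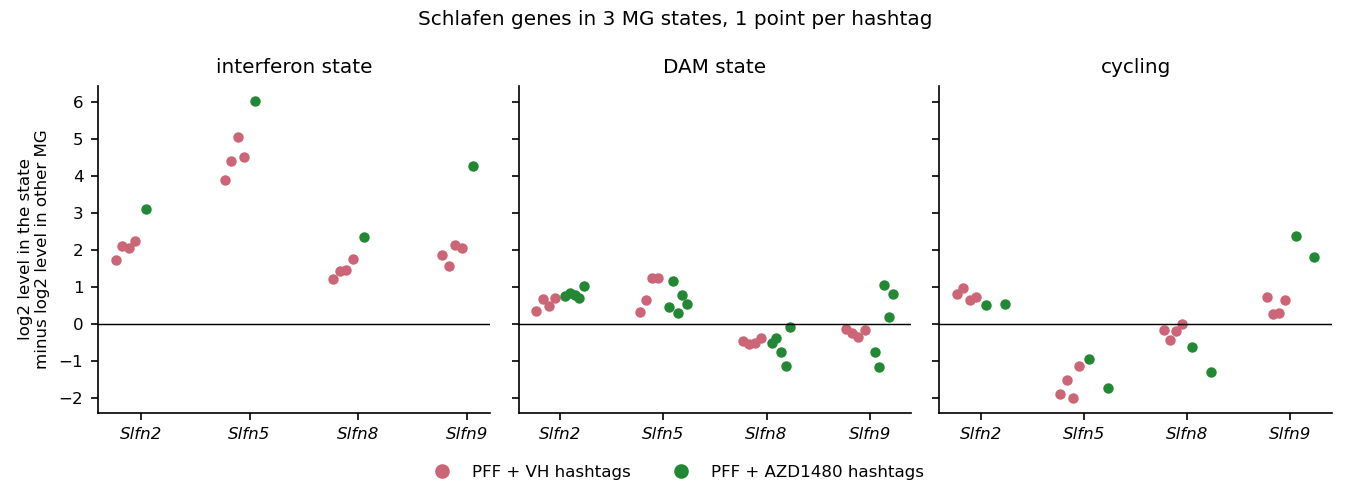
Log2 level of Slfn2, Slfn5, Slfn8 and Slfn9 in MG of a state minus that in other MG of the same hashtag (vertical axis, 1 point per hashtag, pseudocount 0.5 UMI) for the interferon, DAM and cycling states. In the interferon state all points lie above 0, and in the DAM state Slfn2 and Slfn5 lie above 0 and Slfn8 under it in 9 of 9 hashtags.

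Detection of members in the same single cells differed by pair and library. Among thinned PBS MG, Slfn8 was detected in 43.7% of the 103 cells with a Slfn5 UMI and in 21.7% of those without, and in 34.6% of the 486 cells with a Slfn9 UMI against 21.3% without. The split by Slfn9 was 33.1% against 25.5% in monomer and 30.0% against 22.4% in PFF + VH, and the drug library had 2 of 39 such cells (5.13%) against 3.7% without. In monomer the Slfn5 split was 40.5% against 25.7%, in PFF + VH 31.4% against 22.6% and in PFF + AZD1480 13.4% against 3.65%, the last on 67 cells. Slfn2 was detected in 15.5% of PBS cells with a Slfn5 UMI against 2.58% without, in 10.8% against 1.71% in monomer, 12.7% against 5.67% in PFF + VH and 14.9% against 3.22% in PFF + AZD1480. The split of Slfn8 by Slfn2 was smaller than that by Slfn5, at 27.2% against 21.7% in PBS and 25.6% against 22.6% in PFF + VH, and the drug library had 3.72% against 3.705%. Slfn9 was detected in 4.68% of monomer cells with a Slfn2 UMI against 4.72% without, and in 0 of the 67 drug-library cells with a Slfn5 UMI. Cells of 1 library share their source, and these shares are a description.

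Between cell classes the 5 genes were spread differently. Slfn1 was a gene of neutrophils and T cells, Slfn2 and Slfn5 were higher in MM than in MG, and Slfn8 and Slfn9 were found in all 6 immune classes of the PBS library. In neutrophils Slfn1 was 495, 374, 134 and 143 CPM in the 4 libraries, and in T cells 108, 70.3, 49.1 and 51.5 CPM. In NK cells it had 1, 0, 1 and 0 UMIs, and in B cells 0 UMIs in all 4 libraries, with upper limits of 20.9 to 29.6 CPM. Its relative Slfn4, which is no member, was found in neutrophils at 540, 374, 117 and 81.6 CPM and at 0.115 CPM or less in MG.

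In MM, Slfn1 had 43 UMIs in PBS (45.8 CPM, interval 33.2 to 61.7), 9 in monomer (15.3 CPM), 2 in PFF + VH (4.41 CPM) and 5 in PFF + AZD1480 (5.08 CPM). The PBS value stood above the other 3, whose intervals overlapped each other. Slfn5 in T cells was 61.7, 47.5, 42.9 and 49.1 CPM, and in NK cells it rested on 2 to 10 UMIs at 6.31, 15.9, 35.4 and 12.5 CPM. The ratio of Slfn8 to Slfn9 UMIs in NK cells was 2.19, 3.38 and 2.80 in PBS, monomer and PFF + VH, where MG of the same libraries had 6.04 to 6.40, on 10 to 21 Slfn9 UMIs per NK library.

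**Figure D4:**
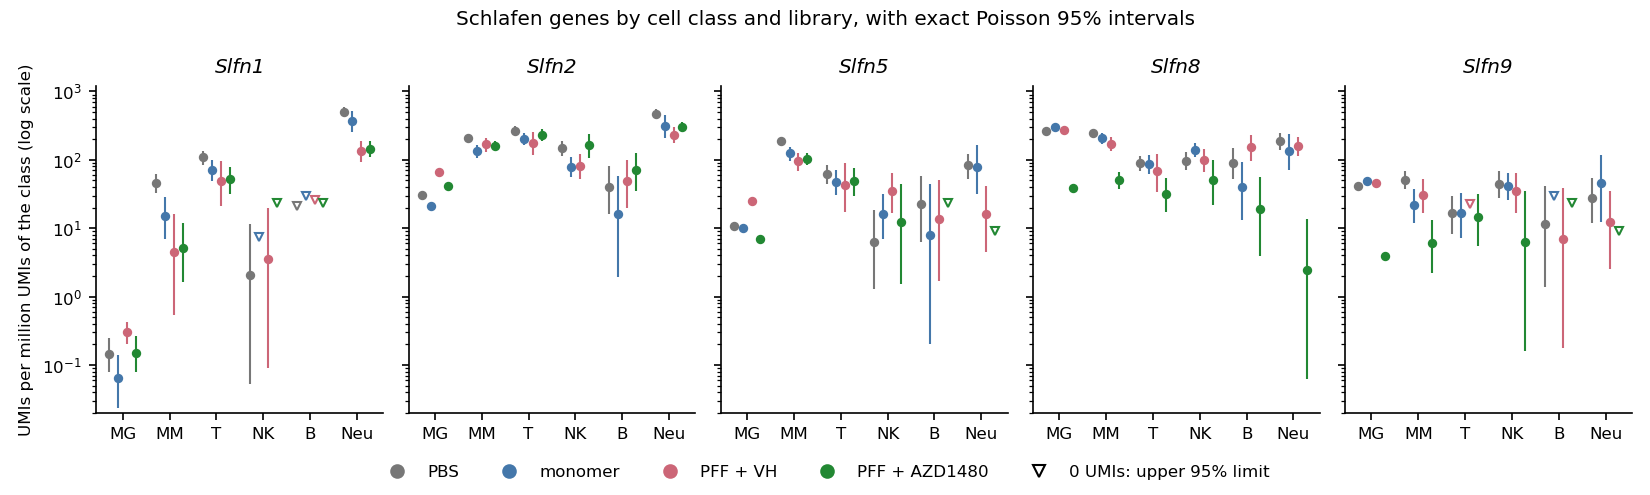
Level of each gene in CPM (log axis) by cell class and library, with exact Poisson 95% intervals; open triangles mark the upper limit where 0 UMIs were found, and Neu are neutrophils. Slfn1 ran from under 1 in MG to 495 in neutrophils. Slfn8 was measured lowest in PFF + AZD1480 in all 6 classes, which include the MG that chose it, and on 1 to 13 UMIs in T, NK and B cells and neutrophils.

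Slfn2 in neutrophils was 474, 317, 231 and 304 CPM in the 4 libraries. In MM it was 211, 132, 168 and 162 CPM, and Slfn5 186, 124, 94.9 and 103 CPM. Over the 8 hashtags with MM, Slfn2 was higher in MM than in MG of the same hashtag by 1.503 ± 0.65 (SD, log2) and Slfn5 by 2.42 ± 0.74, each in 8 of 8 (exact sign-flip permutation test, adjusted p = 0.0195 over 5 comparisons). Slfn2 was also higher in T/NK cells than in MG, by 1.47 ± 0.96 in 7 of 7 hashtags (exact permutation adjusted p = 0.026). This last call was lost (adjusted p = 0.0521) without any 1 of the 6 hashtags 2, 3 and 4 of PFF + VH and 1, 2 and 4 of PFF + AZD1480. With 6 hashtags left the exact p cannot go under 0.0313, which the adjustment over 5 comparisons takes to 0.0521. The log2 difference was 1.18 to 1.599 without single hashtags. These comparisons with MG were chosen after the data were seen. The share of all genes that passes them is not given here, so the calls are not read as particular to Schlafen genes. When the classes were set in the order of their mean level and neighbours were compared, 0 of 14 pairs passed (exact sign-flip permutation test, adjusted over 14), and 1 had an unadjusted p under 0.05, MM over MG for Slfn1, whose MG values rested on 0 to 8 UMIs. With at most 8 hashtags in a pair, none of the 14 could have passed after this adjustment.

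Slfn8 was measured lowest in PFF + AZD1480 in each of these classes. In MM it was 248, 207, 172 and 50.8 CPM, in T cells 88.7, 86.8, 67.5 and 31.9, and in NK cells 96.7, 141, 99.0 and 49.9. The drug-library values of T and NK cells rested on 13 and 8 UMIs, and their intervals overlapped those of PFF + VH. In B cells Slfn8 was 90.8, 40.2, 152 and 19.3 CPM, the last on 3 UMIs, with an interval that overlapped that of monomer. In neutrophils Slfn8 was 187, 136 and 158 CPM in the libraries without the drug, on 54, 12 and 39 UMIs, and 1 UMI was found in the PFF + AZD1480 neutrophils (2.47 CPM, interval 0.0626 to 13.8). MG markers stood at 43.3% of their MG level in PFF + VH neutrophils, at 18.8% in those of PFF + AZD1480 and at 7.0% in those of PBS. B cells, neutrophils and dendritic cells, of which at most 3 per library were found, had too few hashtags for a test.

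The drug comparison in MM used 4 hashtags of each PFF library, since hashtag 3 of PFF + AZD1480 held under 10 MM. Slfn8 was 239, 190, 100 and 117 CPM in PFF + VH and 48.0, 36.5, 69.5 and 37.9 CPM in PFF + AZD1480. The groups did not overlap, as was so on the lower side for 2.36% of 2163 genes. The log2 fold change was -1.78 (SE 0.36, edgeR adjusted p = 0.144 over all genes), so the difference did not pass the correction. All 4 vehicle hashtags but no drug hashtag reached the level that the filter on low counts asks for. Slfn8 was thus tested only through the group where it was higher, which in part sets its direction and the lack of overlap. These MM came from the same hashtags as the MG that chose the gene, and MG markers stood in them at 18.6% of their MG level in PFF + VH and 19.5% in the drug library, and the 6 abundant MG genes outside the gate at 32.5% and 34.3%.

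Slfn2 in MM was 99.6, 196, 301 and 146 CPM against 137, 87.6, 220 and 114 CPM (log2 fold change -0.36, SE 0.35, edgeR adjusted p = 0.787). Slfn5 was 120, 85.7, 134 and 58.3 CPM against 41.2, 21.9, 162 and 25.3 CPM (-0.52, SE 0.54, edgeR adjusted p = 0.805). Both sets overlapped, and the overlap of Slfn5 came from hashtag 4 of PFF + AZD1480, which lay above all others. Thus 0 of 3 Schlafen genes tested were called by edgeR or DESeq2 in MM, where 0.0462% of genes were called lower. At an unadjusted p under 0.05 there was 1 of the 3 by edgeR, against 189 of the 2163 genes. Slfn8 was called without the filter on low counts (log2 fold change -1.73, edgeR adjusted p = 0.00624) and with a looser gate on marker UMIs (-1.65, edgeR adjusted p = 0.0171). The looser gate adds 450 cells to the 600 MM of the 4 libraries, cells in which other classes hold a larger part of the marker UMIs. They can carry more transcripts of MG, whose Slfn8 values chose the gene, and their part in this call was not tested. On simulated counts for MM, 23.5% of 2-fold changes were recovered.

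In T/NK cells Slfn2 was the only member past the filter, and its fold change was above 0. It was 99.6, 91.4, 137 and 113 CPM in PFF + VH and 158, 194 and 343 CPM in hashtags 1, 2 and 4 of PFF + AZD1480, the others holding under 10 cells. All drug hashtags lay above all vehicle hashtags, as was so on the higher side for 5.01% of 1697 genes. The 3 drug hashtags reached the level that the filter asks for, but too few vehicle hashtags did to pass it alone. Slfn2 was thus tested only through the group where it was higher, which in part sets its direction and this order. The log2 fold change was 1.15 (SE 0.33, edgeR adjusted p = 0.0531), which did not pass, and 0 of 1 members were called by edgeR or DESeq2, where 1.36% of genes were called higher and 2.59% lower by edgeR. Its unadjusted edgeR p was 0.00238. Without hashtag 1 of PFF + AZD1480 the call was made (1.32, edgeR adjusted p = 0.0461). Without any other single hashtag it was not made (edgeR adjusted p from 0.0537 to 0.457), and the log2 fold change was lowest, at 0.71, without hashtag 4 of PFF + AZD1480. The DESeq2 adjusted p was 0.32. Since T and NK cells differ in Slfn2 (233 and 162 CPM in the drug library, 178 and 81.3 in PFF + VH), and T cells were 65 of 95 T/NK cells in the drug library but 44 of 143 in PFF + VH, the level per cell and the mix of cells cannot be told apart in this sum. Slfn8 in the same hashtags was 83.0, 82.3, 103 and 122 against 31.5, 90.6 and 39.0 CPM, overlapping and without a test.

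**Figure D5:**
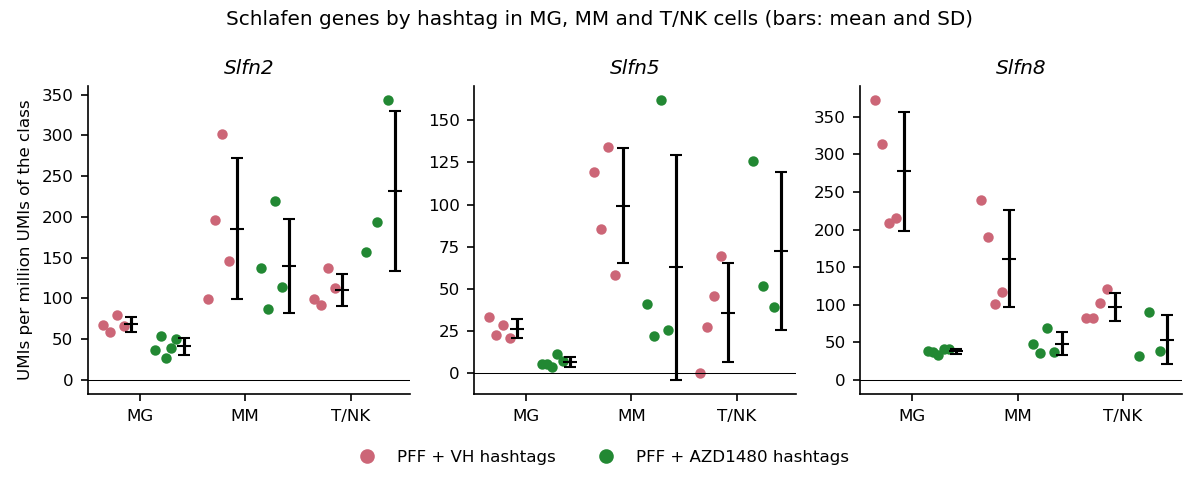
Level of Slfn2, Slfn5 and Slfn8 in CPM (vertical axes, scaled per gene) by hashtag in MG, MM and T/NK cells; circles are hashtags and bars the mean and SD. Slfn8 of PFF + VH and PFF + AZD1480 did not overlap in MG and MM, and Slfn2 in T/NK cells was higher in all 3 hashtags of PFF + AZD1480. Slfn8 in MM and Slfn2 in T/NK cells passed the filter on low counts only through the group where each was higher.

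Interferon-stimulated genes could hardly be followed in those classes. Of the list of 23, 2 passed the filter in MM (Bst2 and Ifi204) and 2 in T/NK cells, Bst2 among them, and 0 were called in either by edgeR. Whether the drug difference of a Schlafen gene differed between MM and T/NK cells was compared for the 5 genes, and 0 passed (two-sided exact permutation test, lowest p = 0.0571 for Slfn2, adjusted p = 0.286). With 3 and 4 hashtags this exact permutation test cannot go under p = 0.0286, which for 1 gene alone would not pass the adjustment over 5.

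The genes whose profile was most like each member were found over 24 combinations of class and library, by Pearson r of log2(CPM + 5) among 12592 genes, which share libraries and are not independent. They include MG of both PFF libraries, whose values chose Slfn8 and Slfn9, so the likeness of these 2 is in part set by that choice. Slfn8 and Slfn9 were each other's nearest gene (r = 0.79). Slfn9 was next nearest to the interferon genes Ifit2 (0.74) and Irf1 (0.71), and Slfn8 to Cpsf4 (0.77) and Ids (0.69). Slfn5 was nearest to Rtp4 (0.79) and Parp14 (0.78), both known as interferon-induced, and Anxa5 (0.75). Slfn2 was nearest to Ly6c2 (0.90), a monocyte surface gene used in the MM gate, Jaml (0.88) and Emb (0.87), and Slfn1 to the leukotriene receptor gene Ltb4r1 (0.90), Gmfg (0.87) and Fas (0.86).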

How the data were processed

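Cells were sorted for CD45 and sequenced on the 10x platform. The deposited matrices hold raw UMI counts per gene and barcode, which the authors made with Cell Ranger (7.0.1 in the file headers) on mm10; the last rows of the deposited PFF matrices hold hashtag counts. Barcodes with 500 to 15000 UMIs, 250 to 5000 genes and at most 10% mitochondrial UMIs were kept. A cell was classed where at least 3 markers of a class had a UMI and held 70% of its marker UMIs; other cells, which include many mixed ones, were left out. Hashtags were assigned with HTODemux (Seurat 5.3.0, positive quantile 0.99), which gave 1 hashtag to 53.3% of cells in PFF + VH and 80.1% in PFF + AZD1480; only these entered hashtag sums, so hashtag doublets were removed there, and no doublet caller was run in PBS and monomer. The 4 and 5 hashtags equal the numbers of separately processed samples in the methods, but no label ties a hashtag to a sample, so p-values measure the spread between hashtags, which may be technical. That spread lies within a library, so p-values of the drug comparison do not separate the drug from the library, and the libraries also differ in depth. Within a class, counts were added up over the cells of each hashtag with at least 10 cells and fitted with edgeR 4.0.16 (TMM, filterByExpr, quasi-likelihood test, Benjamini-Hochberg over all genes, threshold 0.05), with DESeq2 1.42.0 as an alternative, in R 4.3.3. Differences between classes and states used log2 with a pseudocount of 0.5 UMI and two-sided exact permutation tests; comparisons with MG asked for a mean of 5 UMIs. The edgeR fit was tested on simulated data, where it recovered 90.5% of 2-fold changes in MG and 42.0% in T/NK cells. The members, lists, motifs and tests were chosen with earlier results of these data known. All 5 members are described; of other genes, the 4 highest of a list (1 is not reported here), the 3 most alike, and neighbours chosen after their values were seen are named. Hashtag numbers did not pair the libraries, since deviations of same-numbered sums from their group means correlated at -0.03 to 0.06 in MG, -0.14 to 0.21 in MM and -0.08 to 0.07 in T/NK cells, and not every pair was over 0.1 in any class. Slfn10-ps is not among the genes counted, so it has no level here.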

Additional observations from a re-analysis of the deposited data

Results flagged for a closer look

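In MG of PFF + AZD1480, Slfn9 in hashtag 4 (4.79 CPM) stood apart from the other hashtags (3.41 to 3.80 CPM). In MM of the same library, Slfn5 in hashtag 4 (162 CPM, 28 UMIs) stood apart from the other hashtags (21.9 to 41.2 CPM). By Dixon's criterion chance marks about 1 in 20 such groups, and 2 of 16 were marked here.

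With the pseudocount of 0.5 UMI, the log2 difference of Slfn8 between MM and MG was -0.76 in PFF + VH, negative in 4 of 4 hashtags, and 0.36 in PFF + AZD1480, positive in 4 of 4. In CPM without it, MM of PFF + AZD1480 lay under MG in hashtags 2 (36.5 against 36.6) and 5 (37.9 against 41.4). Between T/NK cells and MG the log2 difference with the pseudocount was -1.40 in PFF + VH, negative in 4 of 4, and 0.49 in PFF + AZD1480, positive in 3 of 3. In CPM without it, T/NK cells of PFF + AZD1480 lay under MG in hashtags 1 (31.5 against 38.6) and 4 (39.0 against 41.4). The positive sign in those hashtags thus came from the pseudocount, and a change of direction was not seen in every hashtag. The difference between the libraries was not tested, since the MG level of the drug library is the value through which the gene was chosen.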

How the results depend on the processing

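The log2 fold change of Slfn8 in MG ranged from -3.02 to -2.75 without each hashtag in turn, and from -3.09 to -2.88 under the scaling, tool, filter, gate, hashtag caller and UMI alternatives, with a replicate block of -2.89. Only 16.9% of PFF + VH cells were assigned by MULTIseqDemux, and neither it nor the 90% gate left enough hashtags for a fit in MM or T/NK cells. Among cells of 2000 to 6000 UMIs, an alternative chosen after seeing the data, Slfn2 and Slfn9 in MG moved to -1.21 and -3.94. In MM the number of Schlafen genes called, 0, became 1 without the low-count filter and was 0 to 0 without single hashtags. It also became 1 with the 50% gate, which was chosen after seeing the data and can admit more MG transcripts. In T/NK cells the number called was 0 to 1 without single hashtags. The replicate block gave 0 calls in both (Slfn8 in MM -1.84, Slfn2 in T/NK 1.23) and changed no call. Calls between MM or T/NK and MG were 2 to 4 without single hashtags.

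Some differences between classes and states turned direction. With a pseudocount of 2 UMIs, Slfn5 in MG over neutrophils became -0.94, Slfn8 in MG over MM -0.044 (MM over MG 0.044), Slfn9 in MM over neutrophils -0.032 and in neutrophils over MG 1.17. Without single hashtags, Slfn1 in NK over MM ranged from -0.29 to 0.49, Slfn5 in NK over MG from -0.39 to 1.00, and Slfn9 in neutrophils over MG from -0.91 to 0.052. Slfn9 in the DAM state became 0.10 with the 90% gate, 0.32 with 2 UMIs, 0.0093 when thinned to 500 UMIs, and ranged from -0.24 to 0.042 without single hashtags. The causes were not tested. Of 631 recomputed values, 596 were counted as unchanged. For single tests this meant the same direction and side of the threshold, and for counts of calls a change of at most 1.5 times. For fold changes in MG it meant the same direction and a shift under the SD between hashtags. Outside MG, low UMI counts limit every comparison. B cells, neutrophils and dendritic cells gave no fit under any alternative.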
